A study of Mus musculus with 14 samples.

Results

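Gluconeogenesis genes were described in the liver of Apoe-deficient mice given a Western diet with or without erythrodiol, a triterpene alcohol of the olive. The set held 9 genes, found by their symbol in the deposited table of 17552 genes, and all 9 were found. They are the enzymes Pcx, Pck1, Pck2, Fbp1, G6pc and Tat, the transporter Slc37a4, and the regulators Ppargc1a and Foxo1. All animals were C57BL/6 males of 8 weeks, by the labels, or C57BL/6J and homozygous for the deficiency, by the methods. The methods give about the same age for the mice used, without stating it as the age at sampling. All lacked Apoe, the gene of the apolipoprotein that clears remnant lipoproteins, so the control group carried the same deficiency. The control group received the Western diet alone and the other group the same diet with erythrodiol at 10 mg/kg. The diets were given for 8 weeks by the labels, and the methods state a longer time. Livers were taken after a short fast, RNA of a few mice was joined in each of 7 pools per group, and each pool was sequenced as 1 library.

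The liver makes glucose from lactate, glycerol and amino acids when food is withdrawn. Glucagon, through cAMP, and glucocorticoids raise the transcription of the key enzymes, with PGC-1alpha, the product of Ppargc1a, as coactivator. Insulin acts against them, in large part by keeping the transcription factor FOXO1 out of the nucleus.

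The table gives each gene a single expected count for the control and another for erythrodiol, both summed over 7 libraries, so the spread between libraries or mice is unknown for a gene and no test between the diets was made. Control libraries held between 34856340 and 55244294 clean reads and erythrodiol libraries between 47669656 and 48058606. A single library gave between 9.12% and 17.3% of the control sum and between 13.9% and 14.6% of the erythrodiol sum. The sums were 122889032 counts in the control and 124686047 with erythrodiol, and ratios were taken after scaling by them. Intervals are at 95% and cover counting error only. A ratio of 1.5-fold or more was taken as the limit for calling a gene higher or lower. The 13291 genes that reached 100 counts in total were set beside the members, and all 9 members were among them.

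Of the 9 gluconeogenesis genes, 8 were higher with erythrodiol and Slc37a4 was lower. The median log2 ratio of erythrodiol to control was 0.40 over the 9 genes and 0.16 over the 13291 genes. A log2 ratio above 0 was found in 71.2% of all these genes, and 7 of the 9 members were above the median of all. Pck1 alone passed 1.5-fold, at 1.57-fold, where 2.55% of all genes were 1.5-fold or more higher. This call depends on the scaling: 0 members passed relative to the median of all genes, relative to genes of like length, or with totals that leave out the 50 highest genes or the Mup genes, and 4 passed relative to Ppib and Tbp. No member was 1.5-fold or more lower, against 3.14% of all genes, and no member was changed 2-fold, against 0.767%. The members together took 0.303% of all counts in the control and 0.392% with erythrodiol. This sum was 1.29-fold higher with erythrodiol.

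The gene with the highest ratio and the one with the lowest can be set beside each other by the sequence at their start. Promoters from 250 bases before to 50 bases after the start were given by RefSeq for all 9 members, 12 promoters in all on GRCm38.p6, with several for Pcx and Slc37a4. They were searched on both strands for TGACG, the core of the cAMP response element, for the whole element TGACGTCA, which contains the core, and for the FOXO site GTAAACA. The core was found in 4 of the 12 promoters, belonging to Pck1, Ppargc1a and Slc37a4, and in 20.8% of 32851 promoters of all genes. The whole element was in none of the 12 and in 1.79% of all, and the letters GTAAACA were in none and in 3.65% of all. Only these exact letters were searched, so variants of either site were not looked for and may be present. For each of these genes 1 promoter with the core is shown, 5′ to 3′ along the gene, with the core in capitals. Slc37a4 has 3 promoters, of which the first is shown, and its core lies in the stretch that it shares with the next, which also holds the core. The promoter of Ppargc1a lies inside the span of the gene, whose annotated start is farther away.
Pck1, chr2:173152823-173153122, plus strand: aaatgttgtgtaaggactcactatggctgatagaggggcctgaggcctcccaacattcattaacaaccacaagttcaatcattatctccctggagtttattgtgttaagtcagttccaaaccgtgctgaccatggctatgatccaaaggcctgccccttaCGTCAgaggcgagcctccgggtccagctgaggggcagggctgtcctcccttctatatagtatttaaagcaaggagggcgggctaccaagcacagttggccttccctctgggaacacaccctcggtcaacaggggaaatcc
Ppargc1a, chr5:51567676-51567975, minus strand: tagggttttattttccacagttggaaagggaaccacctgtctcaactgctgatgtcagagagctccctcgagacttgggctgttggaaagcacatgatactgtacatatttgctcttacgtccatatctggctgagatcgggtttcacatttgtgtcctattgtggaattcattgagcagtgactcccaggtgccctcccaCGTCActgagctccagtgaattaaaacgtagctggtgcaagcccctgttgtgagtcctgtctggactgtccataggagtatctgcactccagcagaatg
Slc37a4, chr9:44396696-44396995, plus strand: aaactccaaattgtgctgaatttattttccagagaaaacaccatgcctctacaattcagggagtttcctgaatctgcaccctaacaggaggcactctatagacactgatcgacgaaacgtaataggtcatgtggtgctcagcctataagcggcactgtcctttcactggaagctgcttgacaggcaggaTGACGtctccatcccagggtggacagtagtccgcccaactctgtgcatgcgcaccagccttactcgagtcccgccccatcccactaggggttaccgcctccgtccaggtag
With the start counted as 0, the core lay at -90 to -86 in Pck1, at -49 to -45 in Ppargc1a and at -61 to -57 in Slc37a4. In Pck1 and Ppargc1a it was on the strand opposite to the gene. A match of letters is a description and does not tell whether a working site is present. The core was found both in the member with the highest and in the member with the lowest ratio.

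Levels were compared between genes as counts per kilobase of gene length and per 1000000 counts of the group. Gene length, here and below, is the deposited length in bases, which is not the span of the gene on the chromosome. In the control the order was Fbp1 at 504, Pck1 at 341, Tat at 209, Pcx at 119, G6pc at 105, Slc37a4 at 54.2, Foxo1 at 5.58, Pck2 at 1.75 and Ppargc1a at 1.36. With erythrodiol the levels were 560 for Fbp1, 536 for Pck1, 272 for Tat, 138 for G6pc, 134 for Pcx, 50.6 for Slc37a4, 8.03 for Foxo1, 2.43 for Pck2 and 1.90 for Ppargc1a. G6pc and Pcx thus changed places, while the other members kept their order. The counting intervals of neighbours in each order did not overlap, but the spread between libraries is unknown for all of them. The transcripts of the enzymes of the main path and of Tat were abundant, and those of both regulators and of the mitochondrial enzyme Pck2 were rare.

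**Figure D1:**
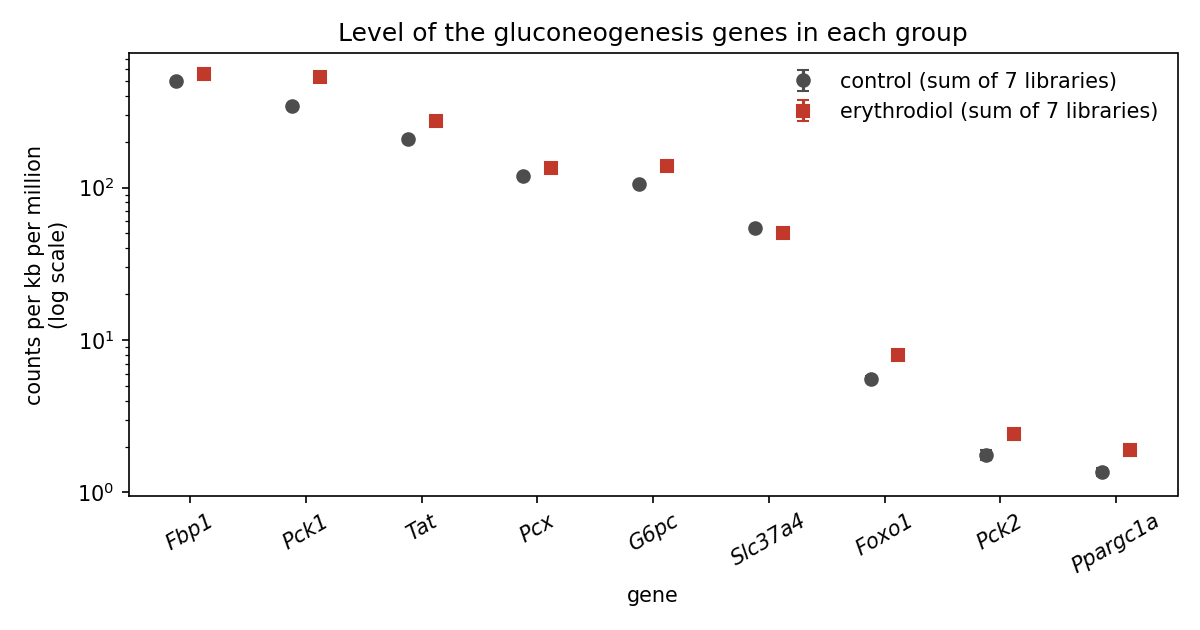
Level of the 9 gluconeogenesis genes in counts per kilobase per 1000000 counts (vertical axis, log scale), each point the sum of the 7 libraries of the control (circles) or erythrodiol group (squares), with 95% counting intervals that are mostly smaller than the points. Levels go from Fbp1 at 504 to Ppargc1a at 1.36 in the control, and Slc37a4 is the gene whose square lies below its circle.

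Pyruvate carboxylase, the product of Pcx, opens the path from pyruvate in the mitochondrion by making oxaloacetate. Pcx, on chromosome 19 from 4510472 to 4621752, went from 60535 counts under the control diet to 69046 under erythrodiol. Its log2 ratio was 0.17, with a counting interval of 0.15 to 0.18, which is near the median of all genes. Of the 13291 genes, 49.0% had a higher ratio than Pcx.

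Phosphoenolpyruvate carboxykinase turns oxaloacetate into phosphoenolpyruvate, and Pck1 encodes the cytosolic and Pck2 the mitochondrial enzyme. Pck1, on chromosome 2 from 173153073 to 173159274, went from 109728 counts under the control diet to 174872 under erythrodiol. This was 1.57-fold higher, with a counting interval of 1.56 to 1.58, and a log2 ratio of 0.65. Higher ratios than that of Pck1 were found in 195 of the 13291 genes, or 1.47%. Pck2, on chromosome 14 from 55540263 to 55550020, went from 702 counts under the control diet to 989 under erythrodiol. Its log2 ratio was 0.47, from 0.33 to 0.62 by counting, an interval that overlaps those of G6pc, Tat, Foxo1 and Ppargc1a but not that of Pck1. Both genes were higher with erythrodiol, and the level of Pck1 was 195-fold that of Pck2 in the control and 221-fold with erythrodiol.

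Fructose-1,6-bisphosphatase, encoded by Fbp1, removes a phosphate at the step that phosphofructokinase carries in the other direction. Fbp1, on chromosome 13 from 62864753 to 62888298, went from 91584 counts under the control diet to 103334 under erythrodiol, a log2 ratio of 0.15 (counting interval 0.14 to 0.17). Against the median of all genes its log2 ratio was -0.01. The levels of Fbp1 and Pck1 stood at a ratio of 1.48 in the control and of 1.05 with erythrodiol. Its relative Fbp2, the muscle enzyme, had 27 and 20 counts, and its difference was within counting error.

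Glucose-6-phosphatase, encoded by G6pc, releases free glucose inside the endoplasmic reticulum, and Slc37a4 encodes the transporter that brings glucose-6-phosphate there. G6pc, on chromosome 11 from 101367716 to 101377903, went from 29404 counts under the control diet to 39251 under erythrodiol, which is 1.32-fold with a counting interval of 1.30 to 1.34. Slc37a4, on chromosome 9 from 44396946 to 44402966, went from 13954 counts under the control diet to 13225 under erythrodiol, a log2 ratio of -0.10 (counting interval -0.13 to -0.06). It was the only member below 0, and 20.4% of all genes had a lower ratio. When scaled to Ppib and Tbp, which the study used as references in RT-qPCR, its log2 ratio was 0.04. The enzyme and its transporter thus differed in direction with the main scaling, and the level of G6pc went from 1.94 to 2.73 times that of Slc37a4.

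The relatives of both genes were rare in these livers. G6pc3, the ubiquitous glucose-6-phosphatase, had a level of 3.86 in the control and 4.53 with erythrodiol, against 105 and 138 of G6pc. G6pc2, the form of pancreatic islets, went from 6 counts under the control diet to 14 under erythrodiol, a ratio of 2.30 whose counting interval of 0.83 to 7.30 includes no change. Slc37a1, Slc37a2 and Slc37a3 had log2 ratios of 0.17, -0.13 and 0.22, respectively, at control levels of 1.92, 1.03 and 5.11.

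Tyrosine aminotransferase, encoded by Tat, starts the breakdown of tyrosine and is a classic gene induced by glucocorticoids in the hepatocyte. Tat, on chromosome 8 from 109986078 to 109999804, went from 60993 counts under the control diet to 80612 under erythrodiol. It was 1.30-fold higher, with a counting interval of 1.29 to 1.32. This interval overlaps that of G6pc.

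Among the regulators, Ppargc1a, on chromosome 5 from 51454249 to 52115853, went from 1064 counts under the control diet to 1510 under erythrodiol. Its log2 ratio was 0.48, with a counting interval of 0.37 to 0.60, the widest but for Pck2. Foxo1, on chromosome 3 from 52268337 to 52350109, went from 3808 counts under the control diet to 5558 under erythrodiol, a log2 ratio of 0.52 (counting interval 0.46 to 0.58). After Pck1, these were the members with the highest ratios in the main scaling. The counting interval of Ppargc1a overlapped those of Pck2, G6pc and Tat. Ppargc1a and Foxo1 both have a large deposited length, of 6380 and 5552 bases, which is far less than their spans on the chromosome. The ratio moved with this length over the whole table.

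**Figure D2:**
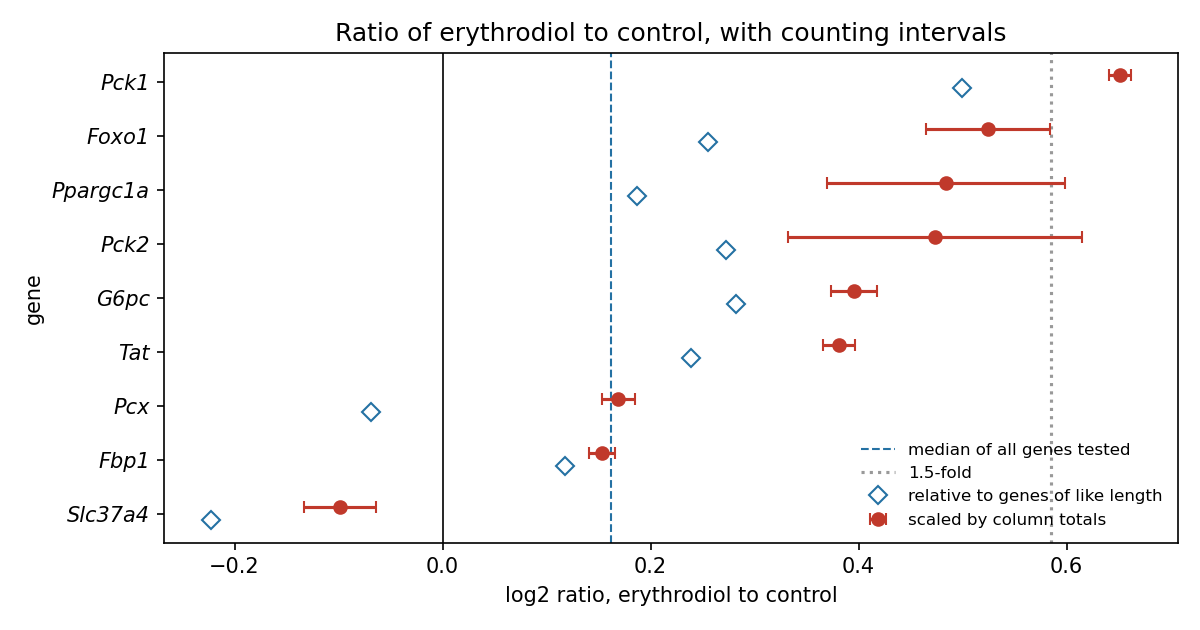
Log2 ratio of erythrodiol to control (horizontal axis) of the 9 gluconeogenesis genes, as filled circles with 95% counting intervals when scaled by the column totals and as open diamonds relative to the 500 genes of nearest length; the dashed line is the median of all genes, 0.16, and the dotted line 1.5-fold. Pck1 is highest on both scales, and Slc37a4 lowest.

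Over the 13291 genes, short genes had lower and long genes higher ratios. In the fifth of genes that was shortest, up to 1640 bases, the median log2 ratio was -0.06, and in the fifth that was longest, from 4675 bases, it was 0.30. Spearman's rho of length and log2 ratio across genes, which are not independent, was 0.43. Each member was therefore set beside the 500 genes of nearest length. Relative to them 7 of the 9 members were higher, with a median of 0.24, and over all genes about as many lie above their neighbours in length as below them. No member was then 1.5-fold or more higher, against 1.05% of all genes, or lower, against 3.48%.

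Pck1 had a log2 ratio of 0.50 relative to the genes of its length, 2540 to 2695 bases, and 3 of these 500 genes had a higher ratio. For G6pc the value was 0.28 and 48 of 500 genes were higher, and for Tat it was 0.24 with 46 of 500 higher. Pck2 had 0.27, with 45 of 500 genes higher. Foxo1 went from 0.52 to 0.26, with 25 of 500 genes of like length higher, and Ppargc1a from 0.48 to 0.19, with 55 of 500 higher. The regulators were thus closer to the genes of their length than the main scaling showed. Fbp1 was at 0.12, with 155 of 500 genes higher. Pcx was at -0.07, on the other side of 0 than with the main scaling, with 311 of 500 genes higher. Slc37a4 was at -0.22, with 121 of 500 genes lower.

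**Figure D3:**
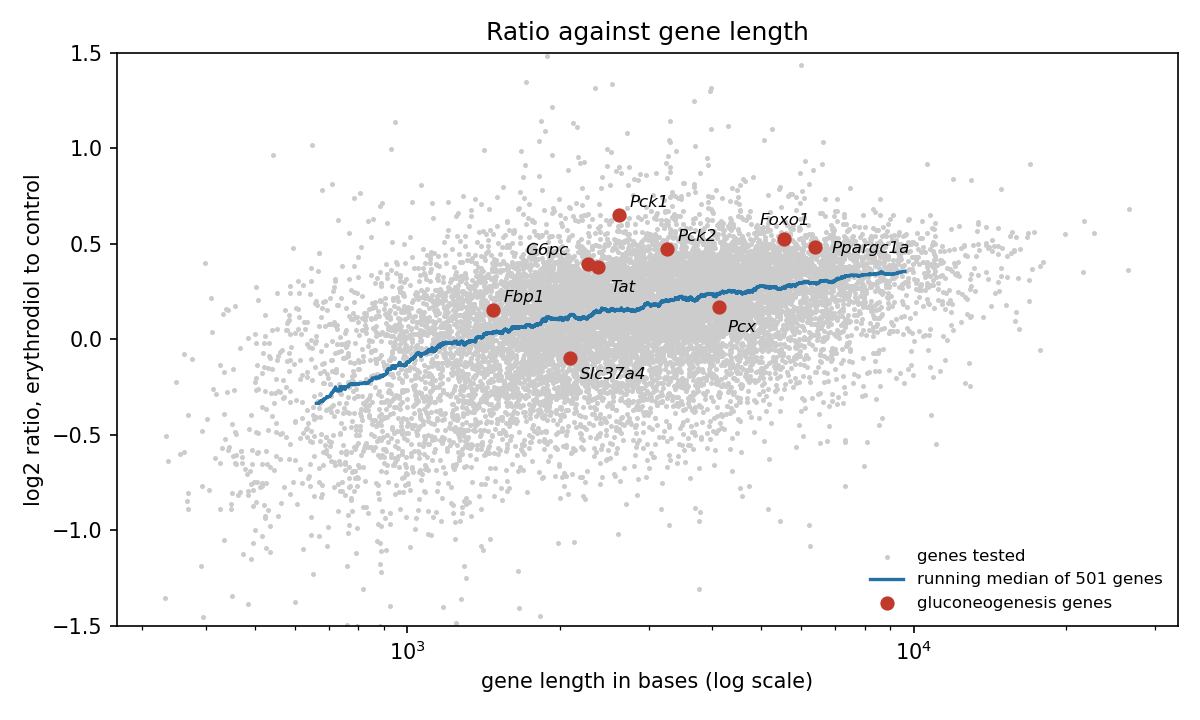
Log2 ratio of erythrodiol to control (vertical axis) against gene length in bases (horizontal axis, log scale) for the 13291 genes (grey), with the running median of 501 genes (line) and the 9 gluconeogenesis genes (large points); 25 genes lie beyond the vertical range of 1.5. The line climbs with length, Pck1 lies farthest above it among the members, and Pcx and Slc37a4 lie below it.

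A comparison with genes of like level kept Pck1 first and Fbp1, Pcx and Slc37a4 last, as with like length. The order of the members between them differed. Relative to the 500 genes nearest in counts per kilobase, Pck1 had a log2 ratio of 0.69, with 1 of 500 genes higher, Tat 0.40, G6pc 0.36, Ppargc1a 0.33, Foxo1 0.32, Pck2 0.26, Fbp1 0.19, Pcx 0.13 and Slc37a4 -0.22. Genes as abundant as Pck1 had a median log2 ratio of -0.04, and genes as rare as Pck2 one of 0.22. Pck1 was first and Slc37a4 last on all of these scales.

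The wider pathway was described by lists of genes. Among 19 genes for the entry of carbon and the shuttles between mitochondrion and cytosol, 14 were above 0 and 0 were 1.5-fold higher, with a median log2 ratio of 0.10. Mdh1, the cytosolic malate dehydrogenase, was the one gene of this list past 1.5-fold, at -0.71, with 84311 counts against 52164 under erythrodiol. Its mitochondrial partner Mdh2 was at 0.20. The aspartate aminotransferases Got1, the highest of the list, and Got2 were at 0.43 and 0.36. Of the mitochondrial pyruvate carrier, Mpc1 was at -0.28 and Mpc2 at -0.20. Relative to genes of like length Mpc1 was at -0.13 and Mpc2 at 0.0002, and the median of the list was -0.02.

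The 7 enzymes of the reversible steps shared with glycolysis had a median of 0.12 and none was past 1.5-fold. Pgk1 was lowest at -0.38 and Gpi1 highest at 0.35. Of the 6 genes of the opposing glycolytic steps and of glucose exit, all were above 0, with a median of 0.29 and none past 1.5-fold. The liver pyruvate kinase gene Pklr was highest at 0.38. Slc2a2, the glucose transporter of the hepatocyte membrane, was at 0.31.

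Of 21 genes for glucagon and cAMP signalling and for transcription, 19 were above 0, with a median of 0.30, and 1 was past 1.5-fold. That was Sik1, a kinase that cAMP induces and that restrains the CREB coactivator encoded by Crtc2, with 1706 counts against 2834 under erythrodiol, a log2 ratio of 0.71. The glucagon receptor gene Gcgr was at 0.31, Crtc2 at 0.30 and Creb1 at 0.21. Cebpa was lowest at -0.11. Relative to genes of like length the median of the list was 0.10, and Sik1 was at 0.46.

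In the list of insulin signalling and FOXO1 targets, all 10 genes were above 0, with a median of 0.34, and 1 was past 1.5-fold. Irs2, an adaptor of the insulin receptor, went from 1293 counts under the control diet to 2079 under erythrodiol, a log2 ratio of 0.66. Igfbp1, a secreted target of FOXO1, was at 0.45, while Pdk4, another FOXO1 target that fasting induces, was lowest at 0.04. Relative to like length the median of the list was 0.08, with Irs2 at 0.43 and Igfbp1 at 0.41. The receptor gene Insr, of 9420 bases, went from 0.42 to 0.07.

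The genes induced by glucocorticoids differed among themselves. Of 7 genes, Per1 was 1.5-fold higher, at 0.67, and Mt2 and Tdo2 were 1.5-fold lower, at -0.93 and -0.60. Of all genes, 2.55% were 1.5-fold or more higher and 3.14% were lower. Tdo2, which degrades tryptophan, went from 166714 counts under the control diet to 111317 under erythrodiol. The median was 0.13, and Fkbp5, Tsc22d3 and Sgk1 were at 0.29, 0.21 and 0.13. Tat, with 0.38, stood above 6 of these 7 genes. Relative to genes of like length the median of the list was -0.02, with Per1 at 0.42, Mt2 at -0.583 and Tdo2 at -0.67. On that scale only Tdo2 of the list was past 1.5-fold.

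The deposited annotation gives the term gluconeogenesis to 20 genes, of which Pck1, Pck2, G6pc, Fbp1 and Pcx are members. Of the 18 with at least 100 counts, 16 were above 0, 2 were 1.5-fold higher and 0 were 1.5-fold lower, with a median of 0.29. The other gene past 1.5-fold beside Pck1 was Per2, a clock gene, at 0.60, and the lowest was Bpgm at -0.30. Relative to genes of like length, 13 of the 18 were above 0, with a median of 0.15.

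**Figure D4:**
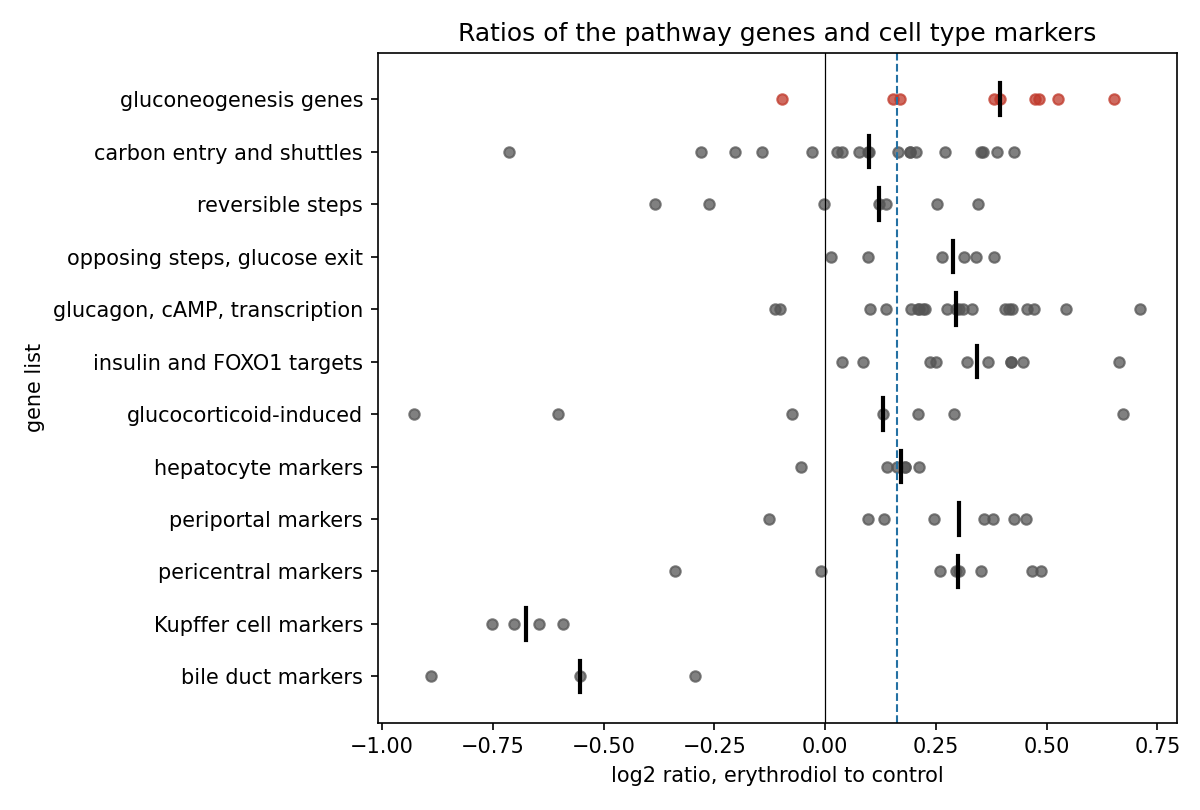
Log2 ratio of erythrodiol to control (horizontal axis) for each gene with at least 100 counts of the gluconeogenesis genes, 6 pathway lists and 5 lists of cell type markers (vertical axis), with the median of each list as a black bar; the dashed line is the median of all genes, 0.16. The median of the gluconeogenesis genes, 0.40, lies to the right of the dashed line, and the 4 Kupffer cell markers lie between -0.75 and -0.59.

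The samples, labelled as liver, held the markers of hepatocytes. All 6 hepatocyte markers, with transferrin under its mouse symbol Trf, were in the table, with a median log2 ratio of 0.17 and none past 1.5-fold, and their summed level was 57644 in the control and 58462 with erythrodiol. Periportal markers, of the zone where gluconeogenesis is strongest, had a median of 0.30 over 8 genes, and pericentral markers 0.30 over 8 genes, with none past 1.5-fold in either list. The markers of Kupffer cells, the macrophages of the liver, were 1.5-fold or more lower in 4 of 4 genes, and their summed level was 389 in the control and 243.0 with erythrodiol. In bulk RNA, fewer cells of a type and less RNA per cell cannot be told apart. Bile duct markers were lower in 3 of 3 genes, 1 of them by 1.5-fold, at summed levels of 3.91 and 2.55. For Krt7, with 174 counts against 144 under erythrodiol, the counting interval of -0.62 to 0.03 included no change. Sinusoidal markers had a median of -0.06 and stellate cell markers one of -0.15. The part of these cells in the ratios of the members was not tested. Of the kidney markers, Slc34a1 and Umod had 1 count in the control and 0 with erythrodiol, and the kidney is the other gluconeogenic organ. Lrp2, also in the table, had 165 and 244 counts. Of the acinar markers, Cela1 had 1574 and 1113 counts, and Prss2 and Cpa1 at most 15 in a group.

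New transcripts, deposited as 1 set for the whole series, were found for 4 of the 9 members, 6 transcripts in all, and for 28.5% of all genes in the table. Pck1, G6pc, Pcx, Foxo1 and Tat had none. Fbp1 had 3, which share a last exon on chromosome 13 from 62859265 to 62862653, of 3389 bases. On the minus strand, where both genes lie, this exon runs to 5488 bases beyond the annotated 3′ end of Fbp1 and stops 865 bases from the 5′ end of Fbp2, at 62858400. Ppargc1a had 1, of 14 exons, with a first exon on chromosome 5 from 52115384 to 52116058 and an intron of 566692 bases behind it, and 3 of its introns were not in the GENCODE annotation. Slc37a4 and Pck2 had 1 each, with all introns known. None of the 16 splicing events that the authors list as different between the diets lay in a member. The set does not separate the diets, so it gives no comparison between them.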

How the data were processed

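The authors made 7 control and 7 erythrodiol libraries of liver poly-A RNA and read them from both ends on a BGISEQ-500. The authors mapped clean reads with HISAT, assembled transcripts with StringTie, merged new coding transcripts with the reference, and counted with Bowtie2 and RSEM; versions are not given in the sources used here. The deposited gene table holds an expected count per gene and group, not normalized, summed over the 7 libraries: the read pairs mapped to genes, from the deposited count of clean reads and the percent mapped that the authors deposited for each library, come to 122887639 in the control and 124690110 with erythrodiol. Because long genes collect more reads, levels were divided by gene length. The log2 ratios, p-values and q-values of the authors' own comparison, in the same table, were not used.

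Ratios of group sums were scaled by column totals. Intervals of ratios are exact binomial (Clopper-Pearson) and those of levels exact Poisson, at 95%, on counts rounded to whole numbers; reads without molecular identifiers are not independent molecules, so these cover counting error only. Genes of like length were the 500 nearest in length with at least 100 counts. Groups were taken from the titles of the samples. The members and lists were chosen with earlier results of these data known. The genes named are the members, their close relatives and, of each list, the genes past 1.5-fold and those of highest and lowest ratio; other genes named were chosen after their values were seen. A gene that this rule would name is not reported here. Coordinates are those of GRCm38 (RefSeq, GENCODE M21), which the sequence names of the deposited transcripts match. The computation was tested on simulated data. Alternatives were 5 other scalings, a pseudocount of 1, minimums of 10 and 1000 counts and 250 or 1000 genes of nearest length; totals without the Mup genes were added after seeing the data. The work was done in Python 3.11.15 with scipy 1.17.1 for intervals, pandas 2.3.3 and numpy 2.4.6 for tables, and matplotlib 3.10.9 for plots.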

Additional observations from a re-analysis of the deposited data

Results flagged for a closer look

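In control replicate 3, 64.3% of the clean reads mapped to genes, far from the other control libraries, whose lowest was 74.4% and highest 81.4%. It was the one value far from its group among 4 looked at, the clean reads and the mapped share in each group, where chance gives such a value in about 5% of groups. This library gave 9.12% of the control counts, so it entered the sum of every member with less weight than the others. Its part in the ratios of the members was not tested, since their counts were not split by library.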

How the results depend on the processing

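The median log2 ratio of the 9 members, 0.40, stayed above 0 under every alternative. It was 0.23 relative to the median of all genes, 0.24 relative to genes of like length, 0.32 relative to genes of like level, 0.30 with totals that leave out the 50 genes of highest count, 0.33 with totals that leave out the 21 Mup genes, and 0.53 relative to Ppib and Tbp. These references differed from each other, at -0.59 and 0.31. The Mup genes took 9.87% of the counts in the control and 5.46% with erythrodiol, and leaving them out moved every log2 ratio by -0.07. The number of members 1.5-fold higher, 1 in the main scaling, was 0 relative to the median of all genes, 0 relative to like length, 0 without the 50 highest genes and 0 without the Mup genes, and 4 relative to Ppib and Tbp. The numbers 1.5-fold lower and 2-fold changed were 0 in each. Signs changed for Fbp1 (-0.01 relative to the median of all genes), Pcx (-0.07 relative to like length) and Slc37a4 (0.04 relative to Ppib and Tbp), while the other 6 members were above 0 throughout. Leaving out a library was not possible, since the counts are group sums. No paired analysis was possible because gene counts are not split by library.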

Other observations

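The deposited annotation gives the term negative regulation of gluconeogenesis to 33 genes, a list taken up after its values were seen. Of these, 21 are major urinary protein genes (Mup), which encode small carriers secreted by the hepatocyte and share reads through their near-identical sequences, so that single members of the family are uncertain. Of the 32 with at least 100 counts, 20 were 1.5-fold or more lower with erythrodiol and 2 higher, with a median log2 ratio of -0.74. The genes 1.5-fold higher were Sik1, at 0.71, and Gm45927, at 0.63. Of the 32, 9 were above 0, and none of these was a Mup gene. Outside the Mup genes Serpina12, an adipokine gene also transcribed in liver here, was at -0.48, with 13272 counts against 9626 under erythrodiol. The term positive regulation of gluconeogenesis was held by 6 genes, all above 0 and none past 1.5-fold, with a median of 0.23 and Foxo1 highest.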
